A study of Homo sapiens with 10 samples.

Results

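MYC and genes of ribosome biogenesis were followed in PC-3 cells, an established human prostate cancer line derived from a bone metastasis, after treatment with luteolin, a plant flavonoid, gefitinib, an inhibitor of the EGF receptor tyrosine kinase, or both. The list held 38 genes: MYC, 7 genes of RNA polymerase I and III or of rRNA transcription, 7 genes of abundant nucleolar and snoRNP proteins, 13 genes of the small subunit processome and 40S maturation, and 10 genes of large subunit assembly. Members were found by the gene name printed for each spot of the array, with 1 value per gene from its brightest probe, and 37 of the 38 were found among 30484 gene names. The name UTP3 is not among the gene names of the array. All 37 were above background on all 10 arrays and were tested together with every other measured gene, 20953 in total.

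Single-colour Agilent whole genome arrays measured mRNA in 5 groups of 2 arrays each. The groups were cells at 0 h before any reagent was added, cells given the solvent DMSO for 24 h, cells given 60 µM luteolin for 24 h, cells given 60 µM gefitinib for 24 h, and cells given 60 µM of each drug together for 24 h. Both drugs were dissolved in DMSO, every group was the same cell line in serum-containing medium, and a single dose and time were used. The labels call the 2 arrays of a group biological replicates while the design text says that samples were run in duplicate. The p-values therefore measure only the spread between such arrays, pooled over the 5 groups, and this spread may be technical. The fit takes the spread as equal in all groups, but the median SD of all genes ran from 0.09 with DMSO to 0.26 with both drugs. In bulk RNA, fewer cells and less RNA per cell cannot be told apart.

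The treatment named in the scanner file differed from the label on 6 arrays. Both arrays labelled luteolin carry gefitinib in the file name, both labelled gefitinib carry the combination, and both labelled with both drugs carry luteolin. Groups follow the labels throughout, and "luteolin arrays", "gefitinib arrays" and "combination arrays" below mean the labels. Under the file names, the values given here for luteolin would belong to gefitinib, those for gefitinib to the combination and those for the combination to luteolin. The 4 control arrays do not depend on this. The 75th percentile of signal, to which each array was scaled, ran from 1177 to 1402 on the control arrays, from 1041 to 1173 on the luteolin arrays, from 628.4 to 650.7 on the gefitinib arrays and from 539.8 to 864.6 on the combination arrays. Between 63.4% and 70.4% of probes were above background, and no probe was saturated. Keratin genes KRT8, KRT18 and KRT19, CD44, EPCAM (TACSTD1 on the array) and CDH1 were above background on 10 of 10 arrays. Of the fibroblast and leukocyte markers, DCN and PTPRC were above background on 0 arrays and COL1A2 on 2, whereas COL1A1 was on 9 and CD3E and CD14 were on 10, at log2 levels of -5.45 to -2.10 relative to the 75th percentile. Their part in the results was not tested. Of the KLK3 probes, 1 was above background on 10 of 10 arrays, while the other two KLK3 probes were at background on every array.

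Ribosome assembly begins in the nucleolus, where RNA polymerase I transcribes the precursor of the ribosomal RNAs. The small subunit processome, a large particle containing the UTP proteins, folds and cuts the part that becomes the 40S subunit, and a separate series of factors, including the PES1, BOP1 and WDR12 complex, matures the 60S subunit. Small nucleolar RNPs modify the RNA on the way. MYC is a transcription factor that binds DNA with its partner MAX at E-boxes and is known for driving many of these genes in growing cells.

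The E-box letters CACGTG, which read the same on both strands, are shown because MYC with MAX binds them. Promoter windows from 250 bases before to 50 after the start were taken from RefSeq (build GRCh38.p14) for the 30 members that the table held. The letters were present in 9 of the 30 windows (30%) and in 7.26% of the 35116 windows of all genes, and in 8.9% of the windows of tested genes that matched. The 30 bases around 5 of the matches follow, from UTP18, UTP20 and BYSL, which are given on every array below, and from RRP9, read 5′ to 3′ on the strand of the gene with the E-box letters in capitals. UTP18 carried a pair of matches, with the first letter 89 bases before the start and 4 bases after it, at chr17:51260445-51260474 and chr17:51260538-51260567 on the plus strand. The match of UTP20 (chr12:101280083-101280112, plus strand) began 10 bases before the start, that of RRP9 (chr3:51941892-51941921, minus strand) 5 bases before it and that of BYSL (chr6:41921515-41921544, plus strand) 28 bases after it.
UTP18 upstream: gggagtgctggtCACGTGgcaagaggctgc
UTP18 at the start: gcagcgaggttcCACGTGagcgcctgcgtt
UTP20: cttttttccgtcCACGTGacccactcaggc
RRP9: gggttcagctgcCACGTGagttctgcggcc
BYSL: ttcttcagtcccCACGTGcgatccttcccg
The other matches were in MYBBP1A, FBL, WDR43, PES1 and GNL2. Every gene whose bases are shown was lowered on the luteolin arrays, whereas WDR43, PES1 and GNL2 did not pass there. A match of 6 letters describes the window and is not a binding site, and no binding was measured here. Of the 9 tested members with a match, 6 were lowered on the luteolin arrays, 3 on the gefitinib arrays and 3 on the combination arrays. Of the 20 tested members whose window had none, the counts were 8, 8 and 4, and of all genes tested 11.7%, 21.7% and 15.7% were lowered. The median log2 changes were -0.72, 0.02 and -0.14 with a match and -0.48, -0.42 and -0.18 without.

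On the luteolin arrays the list moved down together. Of 37 members, 19 were lowered and 0 were raised against DMSO at a Benjamini-Hochberg adjusted p under 0.05 in limma, whereas 11.7% of all genes tested were lowered and 13.8% were raised. At an unadjusted p under 0.05, 23 members passed, a count given without the share of all genes, so it does not set the members apart. The median log2 change of the members was -0.64, and that of all genes was 0.08. In 36 of 37 members both luteolin arrays lay below both DMSO arrays, and DDX10 was the member with both above; among all genes, 32.4% lay below and 41.1% lay above in this way. On the single arrays the members' median difference from the DMSO mean was -0.57 and -0.66, and on the slides that held arrays of both groups it was -0.59 and -0.67. The count of 19 was much smaller without DMSO array 1, without DMSO array 2 or without luteolin array 2. Each of these fits leaves 1 array in a group, and the share of all genes called in them is not given.

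**Figure D1:**
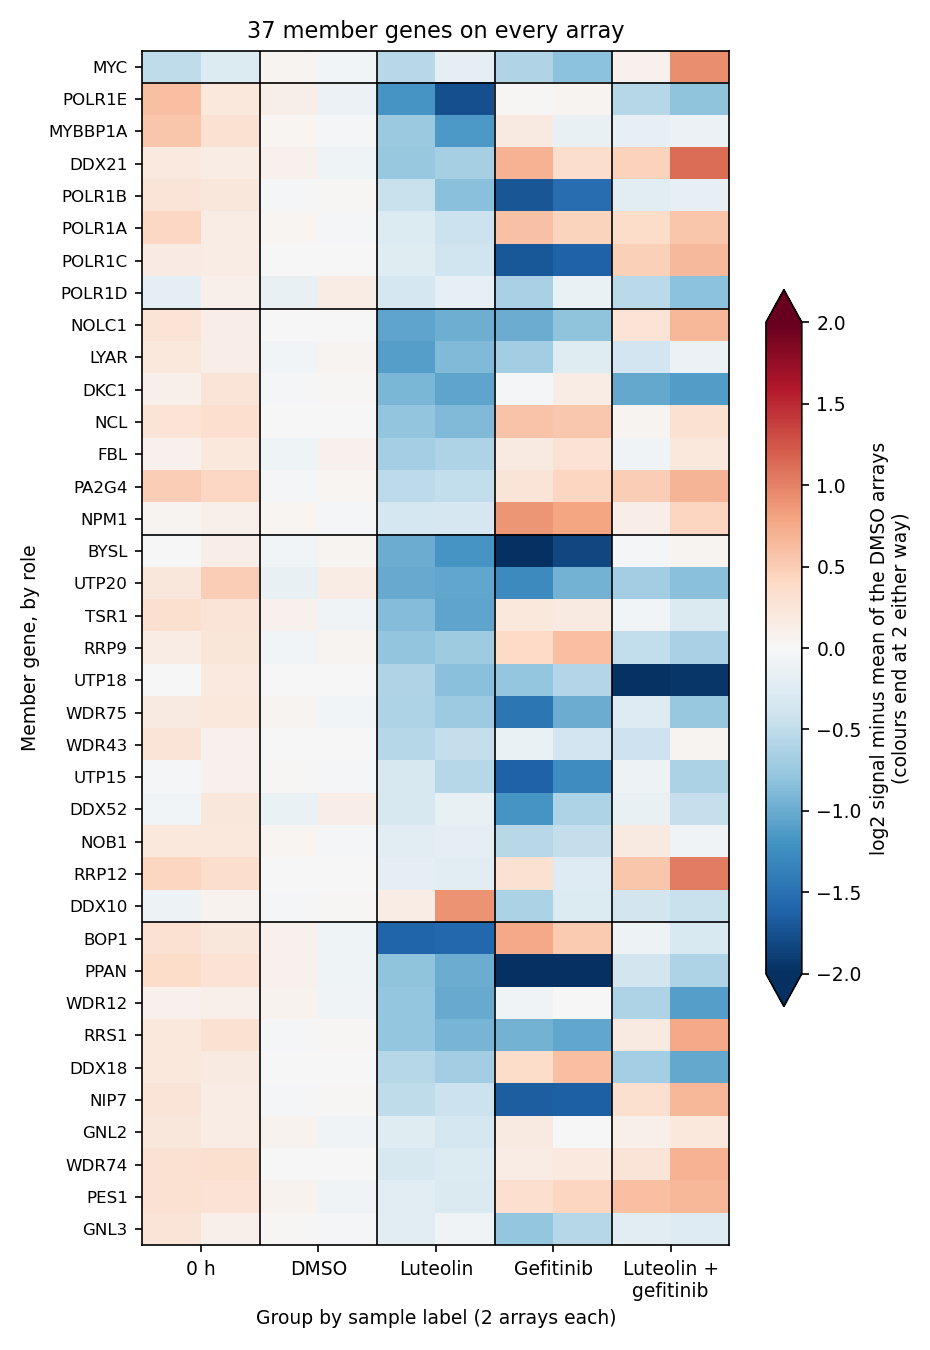
Heat map of 37 members (rows, ordered by role and then by the change on the luteolin arrays) on 10 arrays (columns, 2 per labelled group), coloured by log2 signal minus the mean of the DMSO arrays, with colours ending at 2 either way. The luteolin columns are blue in nearly every row, with DDX10 the exception, while the gefitinib and combination columns hold both blue and red rows.

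On the gefitinib arrays members were called in both directions, lowered more often and raised less often than all genes. There 14 members were lowered and 6 were raised, beside 21.7% and 34% of all genes, and the median log2 change was -0.26 for the members and 0.24 for all genes. Both gefitinib arrays lay below both DMSO arrays for 18 members and above for 12, beside 32.1% and 50.2% of all genes. The fall of PPAN, 6.72-fold, was the largest change of any member in the 3 comparisons with DMSO. The count of 6 raised members was 2 after quantile normalization and 3 with slide as a block. It was also smaller without either DMSO array or either gefitinib array, and without gefitinib array 2 the members' median was -0.14. After quantile normalization, 17 members were lowered, the members' median was -0.54 and that of all genes was 0.07. The shares of all genes called at these settings are not given.

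On the combination arrays, too, members were called in both directions, lowered somewhat more often and raised less often than all genes. Here 9 members were lowered and 6 were raised, beside 15.7% and 25.5% of all genes, with a median of -0.17 for the members and 0.19 for all genes. Both arrays lay below both DMSO arrays for 18 members and above for 14, beside 29% and 46.5% of all genes. These calls rested on few arrays: both counts were smaller without DMSO array 1, without DMSO array 2 or without combination array 2. Without combination array 1 more members were raised. Each of these fits leaves 1 array in a group, and the share of all genes called in them is not given. The 3 comparisons share the same 2 DMSO arrays, so their values below stand side by side and are not independent of each other.

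**Figure D2:**
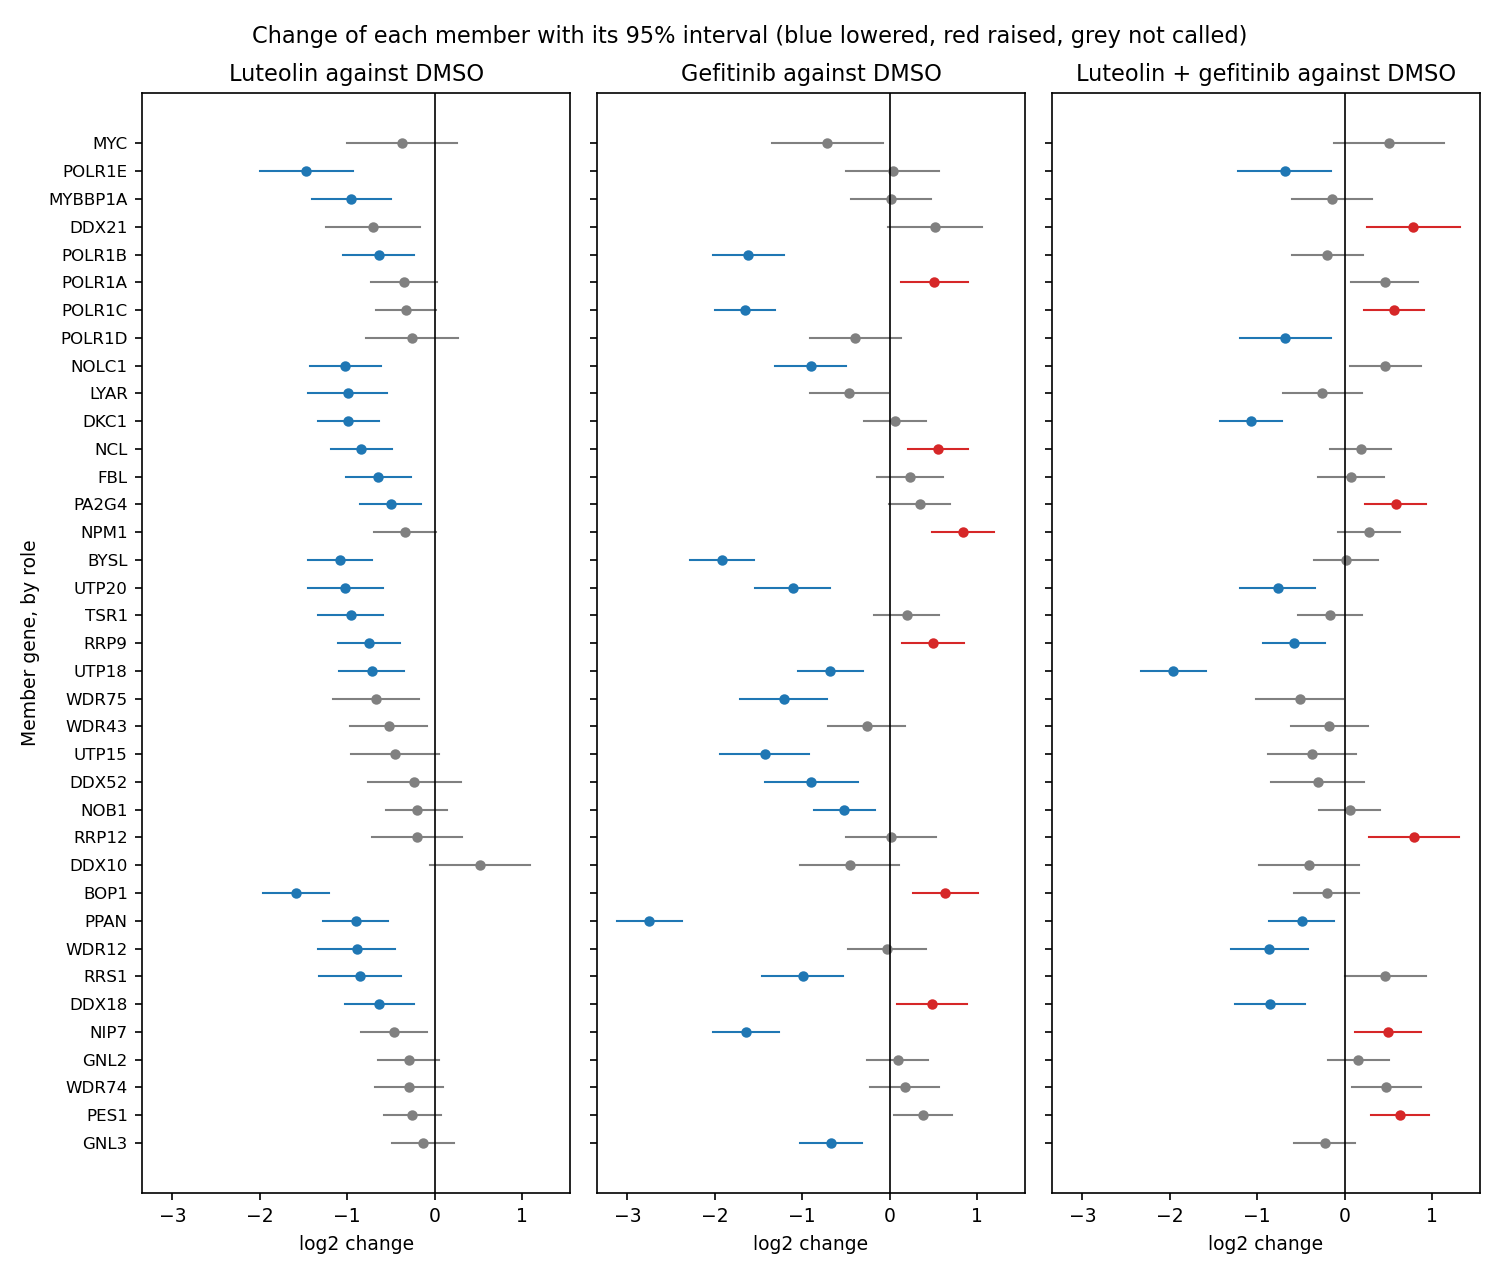
Log2 change (horizontal axis) of each of the 37 members (vertical axis, by role) against DMSO on the luteolin, gefitinib and combination arrays, with 95% intervals from the limma fit; blue points were lowered and red points raised at adjusted p under 0.05, and grey points did not pass. Luteolin has 19 blue and 0 red points, gefitinib 14 and 6, and the combination 9 and 6.

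MYC itself did not pass the test against DMSO on any of the drug arrays. Its relative level, the log2 signal of the probe at chr8:128822450-128822509 (build hg18 in the file headers) minus the 75th percentile of the array, was 2.82 and 3.04 at 0 h, 3.38 and 3.26 with DMSO, 2.76 and 3.13 with luteolin, 2.72 and 2.50 with gefitinib and 3.41 and 4.25 with both drugs. The luteolin and gefitinib arrays lay below the DMSO arrays and the combination arrays above them, and the pair of combination arrays differed from each other more than any other pair. The log2 change was -0.37 ± 0.28 (SE) with luteolin (limma adjusted p = 0.365), -0.71 ± 0.28 with gefitinib (limma adjusted p = 0.0576) and 0.51 ± 0.28 with both (limma adjusted p = 0.168), with 95% intervals of -1.01 to 0.26, -1.34 to -0.08 and -0.12 to 1.14. The gefitinib value was -1.10 after quantile normalization and passed there (limma adjusted p = 0.0043), as it did with normexp background correction (-0.76, limma adjusted p = 0.0132), and without either combination array it passed at the same size. Without combination array 1 the change with both drugs was 0.93 and passed (limma adjusted p = 0.0144). A second, far dimmer MYC probe with a mean signal of 100, against 9044 for the brightest, went the other way on the gefitinib arrays, at 0.97 (limma adjusted p = 0.00435), and was raised on the combination arrays at 0.61 (limma adjusted p = 0.0351). The third was at background. The direction of MYC on the gefitinib arrays therefore depends on the probe and is uncertain.

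Among the 7 genes of RNA polymerase I and III and rRNA transcription, 3 were lowered with luteolin, 2 were lowered and 1 raised with gefitinib, and 2 were lowered and 2 raised with both drugs. The shares of all genes lowered and raised were 11.7% and 13.8% with luteolin, 21.7% and 34% with gefitinib, and 15.7% and 25.5% with both. POLR1C, a subunit shared by polymerases I and III (probe within chr6:43595851-43595999), had relative levels of 1.24 and 1.22 at 0 h, 1.08 and 1.06 with DMSO, 0.82 and 0.67 with luteolin, -0.63 and -0.55 with gefitinib and 1.54 and 1.72 with both. All 4 control arrays lay between the gefitinib arrays, which were lowest, and the combination arrays, which were highest. The changes were -0.32 ± 0.15 (SE, limma adjusted p = 0.151), -1.66 ± 0.15 (limma adjusted p = 0.000182) and 0.56 ± 0.15 (limma adjusted p = 0.0197). The rise with both drugs did not pass without DMSO array 1 (0.57), DMSO array 2 (0.55) or combination array 2 (0.47).

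POLR1B, the second largest subunit of polymerase I (chr2:113049897-113049956), stood at 0.69 and 0.66 at 0 h, 0.40 and 0.46 with DMSO, -0.01 and -0.41 with luteolin, -1.28 and -1.09 with gefitinib and 0.20 and 0.27 with both. It fell by 0.64 on the log2 scale with luteolin (limma adjusted p = 0.0307) and by 1.62 with gefitinib (limma adjusted p = 0.000384), and the change with both was -0.20 (limma adjusted p = 0.391). The luteolin call was lost without any 1 of 5 arrays, those of 0 h and DMSO and luteolin array 2, where the value was -0.44 in the last case, and with slide as a block (-0.64, limma adjusted p = 0.051). POLR1E, a polymerase I subunit known for its part in initiation (chr9:37491711-37491770), gave another order, with -0.79 and -1.17 at 0 h, -1.27 and -1.50 with DMSO, -2.56 and -3.14 with luteolin, -1.37 and -1.33 with gefitinib and -1.95 and -2.19 with both. The luteolin arrays were lowest and the gefitinib arrays lay within the DMSO range. It fell by 1.47 with luteolin (limma adjusted p = 0.00353) and by 0.68 with both (limma adjusted p = 0.0462), and its change with gefitinib was 0.03 (limma adjusted p = 0.911). The call with both drugs was lost without any 1 of the 8 arrays other than luteolin, at -0.80 to -0.56.

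MYBBP1A, a nucleolar MYB-binding protein, fell by 0.95 with luteolin and did not pass with gefitinib (0.02) or both (-0.14). POLR1A, the largest polymerase I subunit, was raised with gefitinib (0.51, not passing at 0.46 with slide as a block), with -0.35 for luteolin and 0.46 for both short of the threshold. The nucleolar helicase DDX21 was raised with both drugs (0.79), and its changes of -0.71 with luteolin and 0.52 with gefitinib did not pass. POLR1D, a further subunit shared by polymerases I and III, was lowered with both drugs by its brightest probe (-0.68), but another probe of the gene with a mean signal of 436.7 was raised there by 2.24 (limma adjusted p = 0.00187), so the direction of POLR1D is uncertain.

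In the nucleolar and snoRNP group, 6 of 7 genes were lowered with luteolin, with a median log2 change of -0.84. With gefitinib 1 was lowered and 2 were raised, and with both drugs 1 was lowered and 1 raised. All genes tested had 11.7% lowered with luteolin, 21.7% lowered and 34% raised with gefitinib, and 15.7% and 25.5% with both. NOLC1, a chaperone of snoRNPs (chr10:103912170-103912229), had relative levels of 1.98 and 1.83 at 0 h, 1.70 and 1.72 with DMSO, 0.65 and 0.73 with luteolin, 0.71 and 0.90 with gefitinib and 1.99 and 2.37 with both. Arrays of either single drug lay below every control array, and the combination arrays lay above all of them. It fell by 1.02 with luteolin (limma adjusted p = 0.00495) and by 0.90 with gefitinib (limma adjusted p = 0.00402), and its change with both was 0.47 (limma adjusted p = 0.0622). Without combination array 1 the last value was 0.66 and passed (limma adjusted p = 0.0158). A NOLC1 probe nearly as bright (mean signal 2921, against 3037) fell by 0.79 with luteolin but gave -0.23 with gefitinib and did not pass there (limma adjusted p = 0.34), while another, dimmer probe fell by 1.03 and 1.13 and was raised with both (0.50, limma adjusted p = 0.0415).

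DKC1 encodes dyskerin, the pseudouridine synthase of H/ACA snoRNPs and a telomerase component (chrX:153658781-153658840). It stood at 3.50 and 3.65 at 0 h, 3.37 and 3.41 with DMSO, 2.48 and 2.34 with luteolin, 3.37 and 3.55 with gefitinib and 2.37 and 2.28 with both. The luteolin and combination arrays were low and the gefitinib arrays overlapped those of DMSO. The fall was 1.98-fold with luteolin (limma adjusted p = 0.00329) and 2.10-fold with both (limma adjusted p = 0.00223). LYAR, a nucleolar growth regulator (chr4:4321178-4321237), had levels of 1.58 and 1.49 at 0 h, 1.31 and 1.41 with DMSO, 0.26 and 0.47 with luteolin, 0.67 and 1.12 with gefitinib and 0.97 and 1.24 with both, and passed with luteolin at the main scaling (-0.99, limma adjusted p = 0.00882). That call was lost without DMSO array 1 (limma adjusted p = 0.0519) or DMSO array 2 (limma adjusted p = 0.07), and the gefitinib change of -0.46 passed without gefitinib array 2 (-0.69), with slide as a block and under the normexp and quantile settings. The difference between its luteolin and gefitinib changes is given with the other tested differences in the closing section.

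NPM1 and NCL were the genes of this group raised on the gefitinib arrays. NPM1, nucleophosmin, was raised by 0.84 and NCL, nucleolin, by 0.55 at the main scaling. With normexp background correction they were raised by 0.71 (limma adjusted p = 0.0026) and 0.50 (limma adjusted p = 0.0129). After quantile normalization, which gives all arrays the same distribution of signal, both values turned, to -0.16 (limma adjusted p = 0.382) and -0.25 (limma adjusted p = 0.166). The other 5 NPM1 probes were also raised with gefitinib at the main scaling, by 0.443 to 0.865, and passed. Bright genes in general were higher on these arrays: the brightest 10% of all genes had a median log2 change of 0.79 with gefitinib and 0.50 with both drugs at the main scaling, and of 0.07 and 0.05 after quantile normalization. The part of this in the rise of NPM1 and NCL was not tested. With luteolin the median of those genes was 0.03, and NCL fell by 0.84 (limma adjusted p = 0.00602) while NPM1 changed by -0.34 (limma adjusted p = 0.149). The other 5 NPM1 probes fell with luteolin and passed (-0.70 to -0.48), as the brightest did after quantile normalization (-0.52, limma adjusted p = 0.0296), and the second NCL probe did not pass with gefitinib (0.31). FBL, fibrillarin, the methyltransferase of C/D snoRNPs, fell by 0.64 with luteolin. Its changes of 0.235 with gefitinib and 0.07 with both drugs did not pass. After quantile normalization they were -0.61 (limma adjusted p = 0.0127) and -0.46 (limma adjusted p = 0.0436). NPM1 with both drugs likewise went from 0.28, not passing, to -0.48 after quantile normalization (limma adjusted p = 0.0296). PA2G4, which encodes EBP1, fell by 0.50 with luteolin and its other 3 probes by 0.95 to 1.14, though the call of the brightest was lost with slide as a block (limma adjusted p = 0.0551). With both drugs its brightest probe was raised by 0.59, but the others gave -0.18, -0.21 and -0.05 and the rise did not pass after quantile normalization (0.26), so the direction of PA2G4 there is uncertain.

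**Figure D3:**
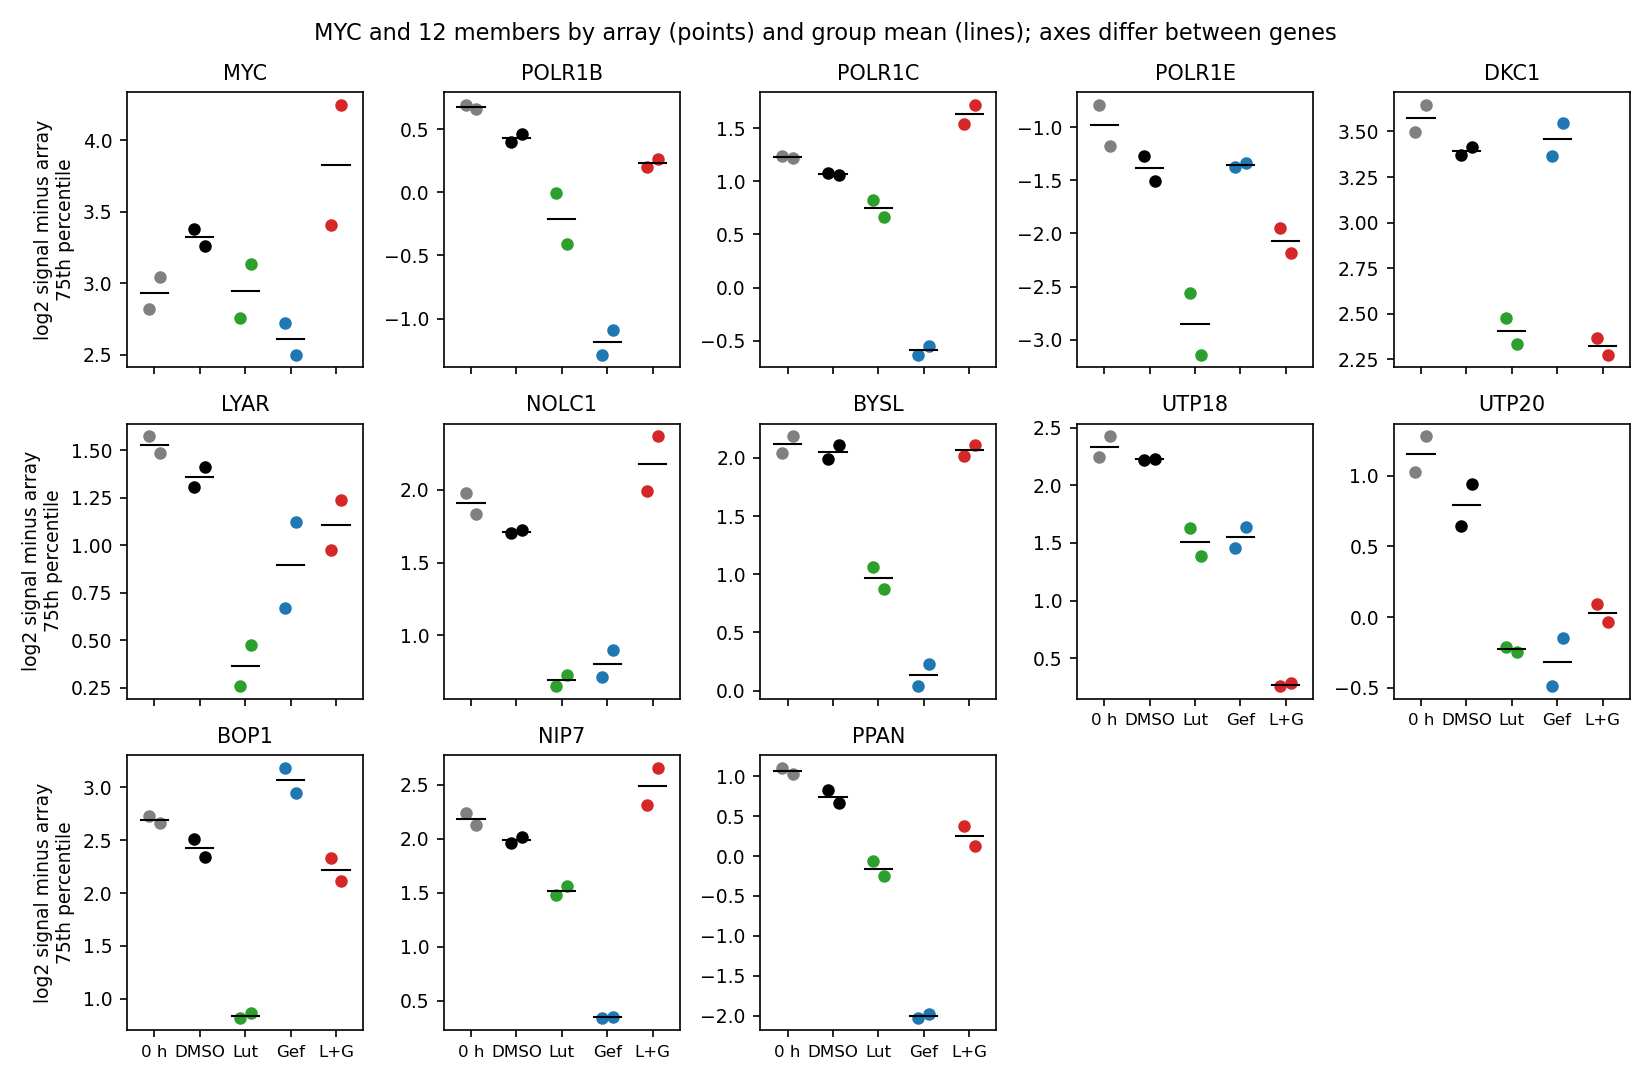
Log2 signal minus the 75th percentile of the array (vertical axis, scaled separately for each gene) of MYC and 12 members on every array, as points by labelled group (horizontal axis), with lines at the means of the 2 arrays of a group. BOP1 is lowest on the luteolin arrays, UTP18 on the combination arrays, and PPAN, NIP7, BYSL, POLR1B and POLR1C on the gefitinib arrays.

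The small subunit group had 12 measured genes, of which 5 were lowered with luteolin, 7 were lowered and 1 raised with gefitinib, and 3 were lowered and 1 raised with both drugs. All genes tested had 11.7% lowered with luteolin, 21.7% lowered and 34% raised with gefitinib, and 15.7% and 25.5% with both. BYSL, bystin, needed for late 40S maturation (chr6:42008497-42008556), had relative levels of 2.05 and 2.19 at 0 h, 1.99 and 2.11 with DMSO, 1.06 and 0.87 with luteolin, 0.04 and 0.23 with gefitinib and 2.02 and 2.11 with both. The combination arrays overlapped the controls, while arrays of either drug alone lay below all of them. It fell by 1.08 with luteolin (limma adjusted p = 0.0026) and by 1.92 with gefitinib (limma adjusted p = 0.000136), and its change with both was 0.01 (95% interval -0.35 to 0.38).

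UTP18, a WD-repeat processome subunit (probe within chr17:46717718-46720437), was at 2.24 and 2.43 at 0 h, 2.22 and 2.23 with DMSO, 1.63 and 1.39 with luteolin, 1.46 and 1.64 with gefitinib and 0.26 and 0.28 with both. Every drug array lay below every control array, and the combination arrays lay far below the rest. It fell 1.65-fold, 1.60-fold and 3.88-fold (limma adjusted p = 0.0142, 0.00884 and 0.000566). Leaving out either DMSO array ended the luteolin and gefitinib calls (-0.72 and -0.71 with luteolin, -0.68 and -0.67 with gefitinib), and luteolin array 2 ended the first (-0.60). UTP20, a large scaffold protein of the same particle (chr12:100301482-100301541), had levels of 1.02 and 1.28 at 0 h, 0.65 and 0.94 with DMSO, -0.21 and -0.24 with luteolin, -0.49 and -0.15 with gefitinib and 0.09 and -0.04 with both. All 6 drug arrays were below the controls, with falls of 1.02, 1.11 and 0.77 on the log2 scale (limma adjusted p = 0.00668, 0.00247 and 0.015). The luteolin call was lost without DMSO array 2 (-0.87) or luteolin array 2 (-1.002), and the combination call without DMSO array 2 (-0.62) or combination array 2 (-0.70).

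RRP9, a U3 snoRNP protein, fell by 0.75 with luteolin and by 0.57 with both drugs and was raised by 0.50 with gefitinib, where its value was 0.19 after quantile normalization and 0.49 with slide as a block and did not pass in either case. TSR1, a 40S maturation factor, fell by 0.96 with luteolin. The processome subunits UTP15 and WDR75 fell with gefitinib (-1.43 and -1.21), as did the helicase DDX52 (-0.90) and NOB1 (-0.52, with -0.36 and no call by another probe), the nuclease that makes the final cut of 18S rRNA. RRP12 was raised by 0.79 with both drugs. DDX10 was the member with a positive value on the luteolin arrays, at 0.52 (limma adjusted p = 0.164), and it passed in no comparison with DMSO, nor did WDR43, whose luteolin value was -0.52 (limma adjusted p = 0.0817). The array carries the accession of UTP3 on a probe named SAS10, which falls outside the rule and was looked at after its values were seen; it read 2.63 and 2.61 with DMSO, 2.62 and 2.45 with luteolin, 2.42 and 1.95 with gefitinib and 3.51 and 3.93 with both, and was raised with both (1.10, limma adjusted p = 0.00671).

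Of the 10 genes of large subunit assembly, 5 were lowered with luteolin, 4 were lowered and 2 raised with gefitinib, and 3 were lowered and 2 raised with both drugs. All genes tested had 11.7% lowered with luteolin, 21.7% lowered and 34% raised with gefitinib, and 15.7% and 25.5% with both. BOP1, a scaffold of the PES1 complex (probe within chr8:145457241-145457384), had relative levels of 2.73 and 2.66 at 0 h, 2.52 and 2.34 with DMSO, 0.82 and 0.86 with luteolin, 3.19 and 2.95 with gefitinib and 2.33 and 2.12 with both. It fell 3.01-fold with luteolin (limma adjusted p = 0.000834), the largest fall of a member there, and was raised 1.56-fold with gefitinib (limma adjusted p = 0.0119), where the value after quantile normalization was 0.26 on the log2 scale and did not pass. The gefitinib call was also lost without DMSO array 2 (0.55) or gefitinib array 1 (0.52). WDR12, of the same complex, fell by 0.89 with luteolin and by 0.86 with both drugs. PES1 did not pass with luteolin (-0.26) and was raised by 0.64 with both.

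PPAN, a factor of early 60S assembly (chr19:10082384-10082443), stood at 1.11 and 1.03 at 0 h, 0.83 and 0.66 with DMSO, -0.07 and -0.25 with luteolin, -2.03 and -1.98 with gefitinib and 0.38 and 0.13 with both. All drug arrays were below the controls and the gefitinib arrays were by far the lowest. It fell by 0.90, 2.75 and 0.49 on the log2 scale (limma adjusted p = 0.00594, 5.6e-05 and 0.0417). The luteolin call was lost without DMSO array 1 (-0.82) or luteolin array 2 (-0.81), and the combination call without any 1 of the 9 arrays other than combination array 1 and with the median over its probes (-0.28, limma adjusted p = 0.186). The second PPAN probe gave -0.68, -1.62 and -0.06, the last not passing (limma adjusted p = 0.776). NIP7, an RNA-binding factor of 60S assembly (chr16:67933164-67933223), had levels of 2.24 and 2.13 at 0 h, 1.96 and 2.02 with DMSO, 1.48 and 1.56 with luteolin, 0.34 and 0.35 with gefitinib and 2.31 and 2.66 with both. It fell by 1.64 with gefitinib (limma adjusted p = 0.000276) and was raised by 0.50 with both (limma adjusted p = 0.0417), and its luteolin change of -0.47 did not pass (limma adjusted p = 0.0708). The rise with both drugs was lost without any 1 of the 9 arrays other than combination array 1, at 0.32 to 0.53, after quantile normalization (0.39) and with slide as a block (limma adjusted p = 0.0535), while the luteolin change passed without either combination array.

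RRS1, which brings 5S RNA into the particle, fell by 0.85 with luteolin and by 0.99 with gefitinib, and its value with both was 0.47. GNL3, nucleostemin, fell by 0.67 with gefitinib. The helicase DDX18 fell by 0.63 with luteolin and by 0.86 with both drugs, and by its brightest probe was raised by 0.48 with gefitinib, where a dimmer probe of the gene fell by 0.54 (limma adjusted p = 0.03), so the direction there is uncertain. GNL2 and WDR74 passed in none of the comparisons with DMSO. Over the list, 20 members had further measured probes, 28 in all, and these had the sign of the brightest probe in 24 cases with luteolin, 23 with gefitinib and 17 with both drugs.

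The combined treatment was also set against what the single drugs would give if their log2 changes added up, a test of the interaction. The combination arrays stood above the sum for 16 members and below it for 0, beside 17.7% and 15.9% of all genes. An unadjusted p under 0.05 was found for 25 members, a count given without the share of all genes, so it does not set the members apart. The members' median departure was 0.74 and that of all genes was -0.17. Departures of the named members that passed were 3.16 for PPAN, 3.02 for BYSL, 2.60 for NIP7, 2.54 for POLR1C, 2.39 for NOLC1, 2.06 for POLR1B, 1.59 for MYC, 1.36 for UTP20, 1.20 for LYAR and 0.74 for BOP1, with limma adjusted p from 0.000185 (PPAN) to 0.0389 (BOP1). MYC missed the threshold without DMSO array 1 (limma adjusted p = 0.0566) and without luteolin array 1 (limma adjusted p = 0.055), LYAR without DMSO array 2 (limma adjusted p = 0.0549), and BOP1 without any 1 of 8 arrays, without the filter on dim probes and with slide as a block. With the median over its probes MYC gave 0.49 and did not pass. This comparison depends on the labels. With the treatments of the file names, 12 members stood above the sum and 5 below, and the shares of all genes there are not given. PPAN (-1.35), BYSL (-0.85), NIP7 (-1.67), POLR1C (-1.90), NOLC1 (-0.35), POLR1B (-0.78) and MYC (-0.85) turned negative.

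The arrays taken at 0 h, which the study used as the base of its fold changes, were the second reference. Against 0 h, 28 members were lowered and 0 raised with luteolin, beside 14% and 15.7% of all genes. Fewer members were lowered without luteolin array 2 or without either 0 h array, in fits for which the share of all genes is not given. With gefitinib 15 were lowered and 1 raised, beside 22% and 32.7%, and with both drugs 10 were lowered and 1 raised, beside 16% and 24.4%. The raised gene with both drugs was MYC (0.90, limma adjusted p = 0.0327), and with gefitinib it was NPM1 (0.76). The rise of MYC with both drugs did not pass without any 1 of the 0 h arrays, the DMSO arrays or combination array 2. More members were raised with both drugs without combination array 1, and the share of all genes there is not given. By limma, 0 members were raised and 0 lowered between DMSO and 0 h, beside 0.0191% and 0.00955% of all genes. There was 1 member at an unadjusted p under 0.05, a count given without the share of all genes. The members' median was -0.20 and that of all genes -0.02, and 34 of 37 members were lower with DMSO, a count that also stands without the share of all genes.

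Other genes of the pathway, from lists outside the 37, were lowered in part with luteolin. Lowered and raised genes were 4 and 0 of 11 other polymerase I factors, 14 and 1 of 34 other small subunit factors, 18 and 2 of 40 other large subunit factors and 5 and 0 of 12 other snoRNP factors, with median log2 changes of -0.35, -0.48, -0.49 and -0.46. With gefitinib the same lists gave 6 and 1, 15 and 4, 12 and 7, and 4 and 3, and with both drugs 1 and 4, 5 and 7, 6 and 9, and 1 and 3. Beside these, 11.7% of all genes tested were lowered and 13.8% raised with luteolin, 21.7% and 34% with gefitinib, and 15.7% and 25.5% with both. UBTF, the architectural factor of rDNA, fell with gefitinib, with a log2 change of -2.33 (limma adjusted p = 0.000119). The polymerase I factor CD3EAP (-2.01), the U3 protein IMP3 (-2.18), NGDN (-1.997), COIL, which encodes coilin (-2.15), and NOLA1, the H/ACA protein GAR1 (-1.30), fell there too, while NHP2L1, a protein of C/D snoRNPs, and NOLA3, the H/ACA protein NOP10, were raised (1.34 and 0.91). BXDC2, a large subunit factor, fell with gefitinib (-1.40). MRTO4, a ribosome assembly factor, fell by 1.23 with luteolin. Genes raised with both drugs were DDX56 (1.68), WDR55 (1.24), UTP14A (1.13), FCF1 (1.06), JOSD3 (0.83) and TTF1 (0.63).

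Textbook MYC targets outside the ribosome were lowered in 15 and raised in 2 of 28 genes with luteolin (median -0.58). They were lowered in 3 and raised in 9 with gefitinib and lowered in 7 and raised in 3 with both drugs. The gefitinib counts were 11 and 1 after quantile normalization and 5 and 10 with normexp background correction, without the shares of all genes at these settings. CDC25A, a cell cycle phosphatase, fell by 4.85 on the log2 scale with gefitinib (limma adjusted p = 6.82e-05), and CTPS, of pyrimidine synthesis, fell by 1.83 with both drugs. The amino acid transporter SLC7A5 was raised by 1.15 with both, and SRM, spermidine synthase, by 1.21 with gefitinib. Of 15 partners and antagonists of MYC, 5 were raised and 2 lowered with luteolin, 6 and 4 with gefitinib, and 5 and 2 with both. Among all genes tested, 13.8% were raised and 11.7% lowered with luteolin, 34% and 21.7% with gefitinib, and 25.5% and 15.7% with both. The MYC antagonist MXD1 was raised by 2.60 with gefitinib (limma adjusted p = 0.000976), and the kinase PIM1 by 2.65 with luteolin (limma adjusted p = 0.00206), while the MAX partner MGA fell by 1.66 with gefitinib and KIAA1524 (CIP2A), which stabilises MYC protein, fell by 1.52 with luteolin.

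The ribosomal proteins themselves did not follow the assembly factors. Of 74 cytosolic ribosomal protein genes, 0 were raised and 0 lowered with luteolin (median 0.14), 73 were raised with gefitinib (median 0.98) and 63 with both drugs (median 0.80). After quantile normalization 4 were raised and 1 lowered with gefitinib (median 0.07) and 4 and 0 with both (median 0.06). With normexp background correction 73 were raised with gefitinib (median 0.93) and 69 with both (median 0.73). Quantile normalization gives all arrays the same distribution of signal, so it removes a shift of bright genes whatever its origin. The part of the higher signal of bright genes in the rise at the main scaling was not tested. Among 13 housekeeping genes, 0 were raised and 4 lowered with luteolin, 10 and 1 with gefitinib and 7 and 0 with both, and after quantile normalization the counts were 0 and 5, 1 and 2, and 1 and 0. The aminoacyl-tRNA synthetases, which charge tRNAs, were raised in 8 and lowered in 4 of 20 genes with luteolin, with AARS up by 1.59, GARS up by 1.52 and FARSB at -1.33. For all genes tested, the shares raised and lowered at the main scaling were 13.8% and 11.7% with luteolin, 34% and 21.7% with gefitinib, and 25.5% and 15.7% with both. The shares with quantile normalization or normexp background correction are not given.

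**Figure D4:**
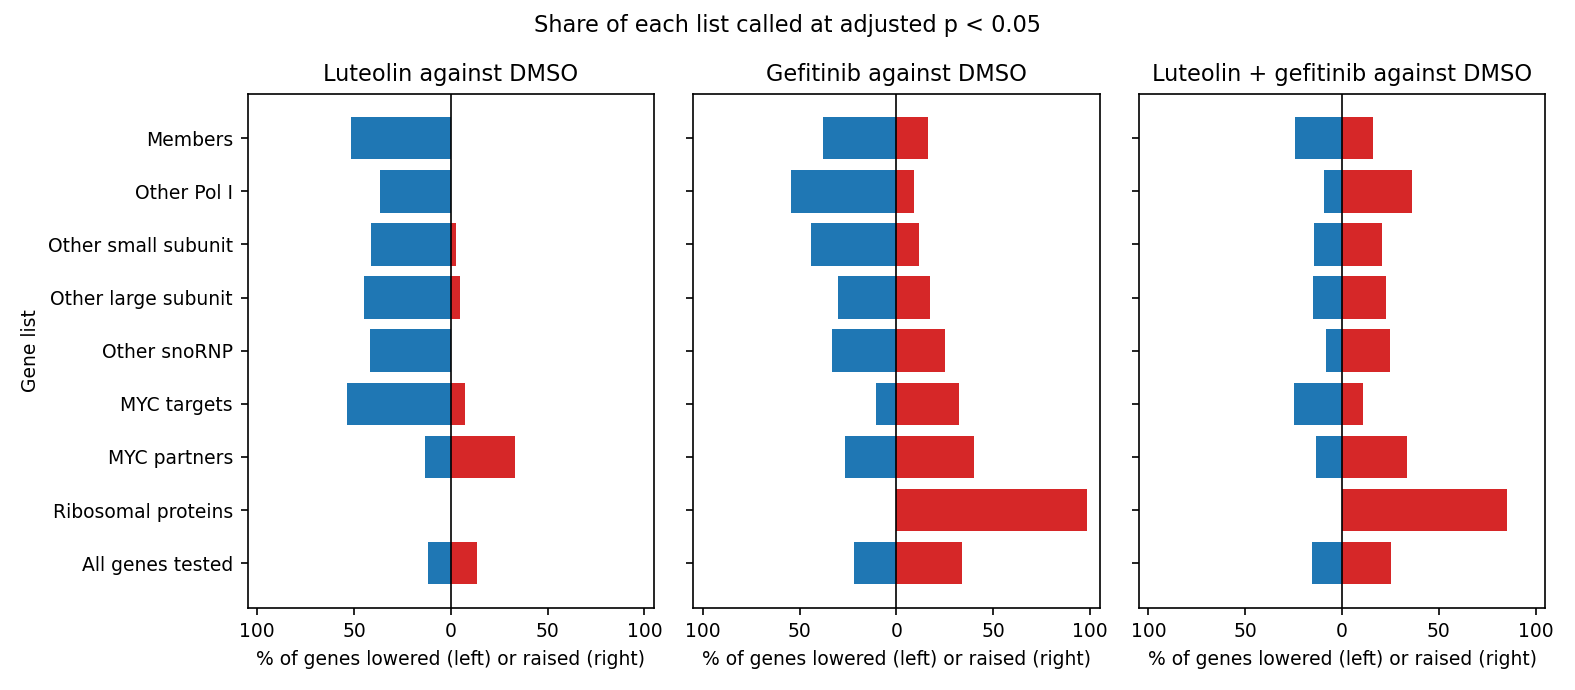
Percent of the genes of each list (rows) that were lowered (blue, to the left) or raised (red, to the right) at adjusted p under 0.05 against DMSO on the luteolin, gefitinib and combination arrays. On the luteolin arrays the members, the 4 other assembly lists and the MYC targets have long blue bars, and the ribosomal proteins have none. All genes tested have 11.7% lowered and 13.8% raised there. The long red bars of ribosomal proteins on the other arrays were short after quantile normalization and stayed long with normexp background correction.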

How the data were processed

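RNA of PC-3 cells was hybridised to 10 single-colour Agilent arrays with 45015 spots each. The authors deposited scanner output with the intensity of each spot already background-corrected by Feature Extraction (10.7.3.1 in the file headers) and a value table equal to it at 45015 of 45015 spots on each array. No between-array normalization is stated in the sources used here. From the intensity, log2 values minus each array's 75th percentile of non-control spots were computed, after control and outlier spots were left out and spots of a probe averaged. Of 41000 probes, the 28776 that rose above background in both arrays of some group (1 or more) were fitted in limma 3.58.1 (R 4.3.3) over all 5 groups, with Benjamini-Hochberg adjustment over all kept probes. Groups follow the sample labels. The number of arrays limits the precision. The scripts were tested on simulated data. The 3 genes per role with the largest mean absolute change against DMSO, and MYC, were given on every array. For other lists, at most the 2 called genes with the largest change each way were named. Members and lists were chosen with earlier results of these data known. Alternatives comprised normexp with an offset of 50, quantile and median scaling, the filter, the probe rule, replicate and slide blocks, the file-name treatments, a minimum of 2-fold, the methods' t-test and leaving out each array. Exon and UTR positions of the hg18 probes were not analysed here.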

Additional observations from a re-analysis of the deposited data

Results flagged for a closer look

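The changes of the named members differed between treatments, each difference tested in the same limma fit with Benjamini-Hochberg adjustment. Log2 values of luteolin minus gefitinib that passed were 1.85 for PPAN, 1.33 for POLR1C, 1.17 for NIP7, 0.98 for POLR1B and 0.83 for BYSL, and on the other side -2.23 for BOP1, -1.50 for POLR1E, -1.05 for DKC1 and -0.53 for LYAR.

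Both drugs minus luteolin gave 1.49 for NOLC1, 1.38 for BOP1, 1.10 for BYSL, 0.96 for NIP7, 0.89 for POLR1C, 0.88 for MYC, 0.79 for POLR1E and 0.74 for LYAR, with UTP18 lower at -1.24. Both drugs minus gefitinib gave 2.26 for PPAN, 2.22 for POLR1C, 2.14 for NIP7, 1.93 for BYSL, 1.42 for POLR1B, 1.37 for NOLC1 and 1.22 for MYC, with -1.28 for UTP18, -1.14 for DKC1, -0.85 for BOP1 and -0.72 for POLR1E. Limma adjusted p ran from 5.04e-05 (POLR1C, both drugs minus gefitinib) to 0.0456 (LYAR, luteolin minus gefitinib).

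Departures from the sum of the single drugs passed for PPAN (3.16), BYSL (3.02), NIP7 (2.60), POLR1C (2.54), NOLC1 (2.39), POLR1B (2.06), MYC (1.59), UTP20 (1.36), LYAR (1.20) and BOP1 (0.74). All MYC differences here are those of its brightest probe. A far dimmer MYC probe was raised more with gefitinib (0.97) than with both drugs (0.61). With the median over its probes the MYC departure was 0.49 and did not pass. Exchanging labels for file names leaves the sizes of differences between any pair of drug groups as they are and moves them to other pairs of treatments.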

How the results depend on the processing

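With 2 arrays a group, single arrays weigh heavily, the labels of 6 arrays conflict with the file names, and signal over background limits dim probes. The members' median on the luteolin arrays stayed between -0.70 and -0.64 under every scaling, filter, probe rule and block tried, with 21, 21 and 23 members lowered under normexp correction, median centring and quantile normalization and 15 without the filter. The value table gave the same values as the scanner files. Spike-in scaling was not run, because the spike-in spots carried almost no signal. The cause of the changes below was not tested, except where the setting itself exchanges treatments, drops samples or asks for a larger change. The counts in this section stand without the share of all genes at the same setting and show only how the members' counts moved.

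Normexp correction moved the combination median to -0.19 and the count raised with both drugs against 0 h to 2. Quantile normalization gave 2 raised with gefitinib and medians of -0.54 with gefitinib and -0.29 with both, and against 0 h 0 raised with gefitinib and 17 lowered with both. Median centring gave -0.20 as the combination median. Without the filter, 0 were raised with both against 0 h; with only probes above background on all arrays, 2 were, and 1 member had a negative interaction. The median over a gene's probes gave medians of -0.029 with gefitinib and 0.014 with both, with 2 raised against 0 h in each. With slide as a block, 3 were raised with gefitinib and 0 with both against 0 h. With the replicate block, the counts against DMSO were the same as without it, 19 and 0 with luteolin, 14 and 6 with gefitinib and 9 and 6 with both; the deviations of same-numbered arrays had correlations of -0.097 to 0.29, over 0.1 for 6 of 10 pairs of groups, and 4 of the 5 arrays of a number lay on 1 slide. As not every correlation was over 0.1 and the labels tie the numbers to nothing shared, the numbers were not taken as pairs, which does not show that pairing is absent.

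Fitting only the 2 groups compared gave 5 lowered and 0 raised with both against DMSO, and 0 raised against 0 h. Asking for at least 2-fold left 5 lowered with luteolin, 8 lowered and 0 raised with gefitinib and 2 and 0 with both against DMSO, and against 0 h 12 lowered with luteolin, 0 raised with gefitinib and 5 lowered and 0 raised with both. The methods' t-test against 0 h called 20 lowered with luteolin, 8 lowered and 2 raised with gefitinib and 6 lowered and 0 raised with both, and 0 in every case after Benjamini-Hochberg adjustment. After seeing the data, UTP3 was added through its accession, which gave a combination median of -0.15, and DDX18, MYC and POLR1D, whose probes differ in direction, were left out, which gave -0.14 with gefitinib and -0.15 with both.

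With the treatments of the file names, 9 members were lowered and 6 raised with luteolin (median -0.17), 19 and 0 with gefitinib (-0.64) and 14 and 6 with both (-0.26), and against 0 h 10 and 1 with luteolin and 28 and 0 with gefitinib. Luteolin then gave 0.56 for POLR1C, 0.47 for NOLC1, 0.50 for NIP7 and 0.014 for BYSL. Gefitinib gave -1.47 for POLR1E, -0.99 for DKC1 and -1.59 for BOP1. Both drugs gave -1.66 for POLR1C, 0.034 for POLR1E, -0.90 for NOLC1, 0.064 for DKC1, -1.64 for NIP7, 0.64 for BOP1 and -1.92 for BYSL. The interaction had 5 members called negative, and its values were -0.85 for MYC, -1.90 for POLR1C, -0.78 for POLR1B, -0.35 for NOLC1, 2.12 for DKC1, -1.35 for PPAN, -1.67 for NIP7, 1.998 for UTP18 and -0.85 for BYSL.

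Leaving out 1 array gave, against DMSO, 7 to 23 lowered and 0 to 1 raised with luteolin (median -0.66 to -0.57), 1 to 9 raised with gefitinib (median -0.26 to -0.14) and 2 to 10 lowered and 0 to 12 raised with both (median -0.17 to -0.10). Against 0 h it gave 14 to 31 lowered and 0 to 1 raised with luteolin and 0 to 5 raised with both, and 0 to 1 negative interactions. A group left with 1 array is assumed to vary like the others.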
